A study of Mus musculus with 11 samples.

Results

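The major urinary protein (Mup) genes of mouse chromosome 4 were followed in 11 liver RNA-seq libraries through 9 of their rows: Mup9, Mup11, Mup12, Mup15, Mup17, Mup19, Mup21, the pseudogene Mup-ps16 and the non-coding gene Gm13775. They were taken by symbol from the deposited table of 19207 genes, which holds 24 further rows whose symbol starts with Mup. The names were put forward with earlier results of the same data known: they were in effect chosen by their counts after carbon tetrachloride and after oil, with no stated threshold. Values from that contrast are therefore given as a description only, and the genotype contrasts carry the tests. Those contrasts use the same libraries, so they are not free of the choice of members. If rows were chosen for low counts after carbon tetrachloride in wild types, they can lie higher in knockouts by that choice. The interaction of genotype and treatment is built from the same carbon tetrachloride and oil contrasts.

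Carbon tetrachloride (CCl4) is a liver toxicant that cytochrome P450 enzymes of the hepatocytes around the central vein turn into reactive products, and oil is the vehicle given in its place. All mice were of strain C57BL/6. The groups were KO_CCL4, Hmgb2-/- mice given CCL4 (3 libraries, 24, 25 and 15), KO_Oil, Hmgb2-/- mice given oil (2 libraries, 11 and 12), WT_CCL4, wild-type mice given CCL4 (3 libraries, 4, 5 and 6), and WT_Oil, wild-type mice given oil (3 libraries, 1, 2 and 3). Hmgb2 encodes a DNA-bending chromatin protein, and the labels name the knockout by genotype alone, with no Cre or promoter. The sources used here do not give age, sex, dose, time after dosing or hour of day. Nothing in the labels says that libraries came from separate mice, so p-values measure the spread between these libraries, which may be technical. The titles of KO_CCL4 24 and 25 carry the letter E before the number where the other 9 carry S, and values without both are given where they change a call.

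Major urinary proteins are small lipocalins with a barrel-shaped pocket that binds volatile pheromones. Hepatocytes secrete them in large amounts, the kidney filters them, and mice excrete them in urine as scent marks. The genes lie as one tandem array, with a central block of nearly identical copies and more diverged copies such as Mup3, Mup20 and Mup21. Pulsatile growth hormone acting through STAT5b drives them in male liver, and glucocorticoid, thyroid hormone and testosterone also raise them. Mup20 encodes darcin, the male pheromone protein that attracts females.

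The 33 Mup rows spanned chr4:59964294-62150863 (mm10), and the 9 members spanned chr4:60418046-62150863. Mup9 to Mup21 are protein-coding genes on the minus strand, whereas Gm13775 and Mup-ps16 are annotated on the plus strand and share 262 exon bases, of 751 in Gm13775 and 596 in Mup-ps16. Among the 6 coding members other than Mup21 the coding sequences were 98.5% to 99.8% identical over 15 pairs, with a median of 99.3%. Mup21 was 84.2% to 85.1% identical to those 6. The first 60 coding bases, read from GENCODE M21 transcripts on GRCm38, are shown for the 5 members with a coding length of 543 bases because they make visible how little separates the copies a short read has to be assigned to. Capitals mark bases that differ from Mup17, and 2 of the 60 positions, and 9 of all 543, differed among the 5.
Mup17: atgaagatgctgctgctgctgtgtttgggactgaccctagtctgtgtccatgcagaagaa
Mup9: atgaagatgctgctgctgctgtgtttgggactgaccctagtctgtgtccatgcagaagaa
Mup12: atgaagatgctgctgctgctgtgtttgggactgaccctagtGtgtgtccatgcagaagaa
Mup15: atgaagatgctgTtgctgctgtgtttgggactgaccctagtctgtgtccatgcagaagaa
Mup19: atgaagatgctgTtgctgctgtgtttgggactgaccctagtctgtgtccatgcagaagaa

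The same likeness decides how far a count can be credited to one copy. Of the 50-base windows in their transcripts, 0% in Mup15 and 0% in Mup19 occurred in no other gene of the annotation. The share was 7.85% in Mup9, 10.5% in Mup-ps16, 11% in Mup11, 14.6% in Mup12 and 21.9% in Mup17. It was 74.4% in Gm13775 and 80.7% in Mup21, so these are the members whose reads are most nearly their own. How the authors placed reads with several matches is unknown from the sources used here, and the counts of the single central copies are uncertain for that reason. Sums over the copies are given beside the single values.

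Stretches at the gene starts are shown so that the letters of the copies can be compared there too. RefSeq promoter windows (GRCm38.p6) were found for 6 of the 7 coding members, Mup12 having no entry. Each printed stretch is the 100 bases, on the minus strand, that end with the box TATATAA, given in capitals. The box ended 1 to 24 bases before the RefSeq start, apart from Mup11, where it reached 5 bases past it (-5 in the same measure). The gene spans of the deposited table begin further upstream, so that 21 bases of each stretch other than that of Mup9 lie inside them. The stretches lie at chr4:60421977-60422076 for Mup9, chr4:60662391-60662490 for Mup11 and chr4:61439723-61439822 for Mup15. Those of Mup17, Mup19 and Mup21 lie at chr4:61595851-61595950, chr4:61782249-61782348 and chr4:62150843-62150942.
Mup9: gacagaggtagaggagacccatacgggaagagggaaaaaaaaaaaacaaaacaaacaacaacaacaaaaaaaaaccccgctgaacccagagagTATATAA
Mup11: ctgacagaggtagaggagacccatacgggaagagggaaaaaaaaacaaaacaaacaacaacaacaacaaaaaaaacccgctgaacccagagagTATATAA
Mup15: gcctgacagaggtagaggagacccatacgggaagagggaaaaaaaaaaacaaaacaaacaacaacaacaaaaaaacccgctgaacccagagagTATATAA
Mup17: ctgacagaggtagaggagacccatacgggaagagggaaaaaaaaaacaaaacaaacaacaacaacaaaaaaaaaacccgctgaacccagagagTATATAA
Mup19: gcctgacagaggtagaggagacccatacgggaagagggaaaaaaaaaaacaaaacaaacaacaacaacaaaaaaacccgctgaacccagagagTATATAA
Mup21: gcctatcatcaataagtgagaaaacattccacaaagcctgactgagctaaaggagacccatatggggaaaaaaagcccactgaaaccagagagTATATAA

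The stretches of Mup15 and Mup19 were the same letter for letter. Against Mup17, identity was 98.0% for Mup11, 97.0% for Mup9, 96.0% for Mup15 and Mup19 and 55.0% for Mup21. The longest run of a bases was 9 in Mup11, 10 in Mup17, 11 in Mup15 and Mup19, 12 in Mup9 and 7 in Mup21. TATATAA, searched on both strands, was in 6 of 6 member windows of 300 bases and in 3.24% of 32851 RefSeq promoter windows of that length. The 6 of 6 is no measure of enrichment, because most copies are near-identical and the same box placed the printed stretches. Another 3 motifs were searched in the same windows on both strands, and 0 of 6 member windows held any of them. TTCNNNGAA, the form that STAT factors bind, was in 8.30% of all windows, TTGCNNAA, a form bound by C/EBP factors, in 10.8%, and CAAAGTCCA, a form bound by HNF4A, in 0.475%. A lack of match says only that these letters are not in these windows.

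The libraries held 7306082 counts (KO_Oil 11) to 14116886 counts (WT_CCL4 4). Values below are CPM, counts scaled to a common total by the TMM-adjusted library size, and the 3 counts taken as the detection floor came to 0.189 to 0.431 CPM per library. Hmgb2 stood at 0.387, 0.412 and 0.402 CPM in KO_CCL4 24, 25 and 15, 0 and 0.95 CPM in KO_Oil 11 and 12, 7.42, 3.14 and 6.69 CPM in WT_CCL4 and 1.93, 1.98 and 2.63 CPM in WT_Oil, so every knockout library lay below every wild-type library. The liver label was checked on 20 hepatocyte markers, whose summed level overlapped between all 4 groups, at 74880 to 92035 CPM in KO_CCL4, 77571 to 84988 CPM in KO_Oil, 78736 to 96148 CPM in WT_CCL4 and 84892 to 102255 CPM in WT_Oil. The Y-linked Ddx3y was at 25.8 to 138 CPM and Xist at 0 to 0.47 CPM across the 11 libraries. In whole liver, fewer cells of a type and less RNA per cell cannot be told apart.

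**Figure D1:**
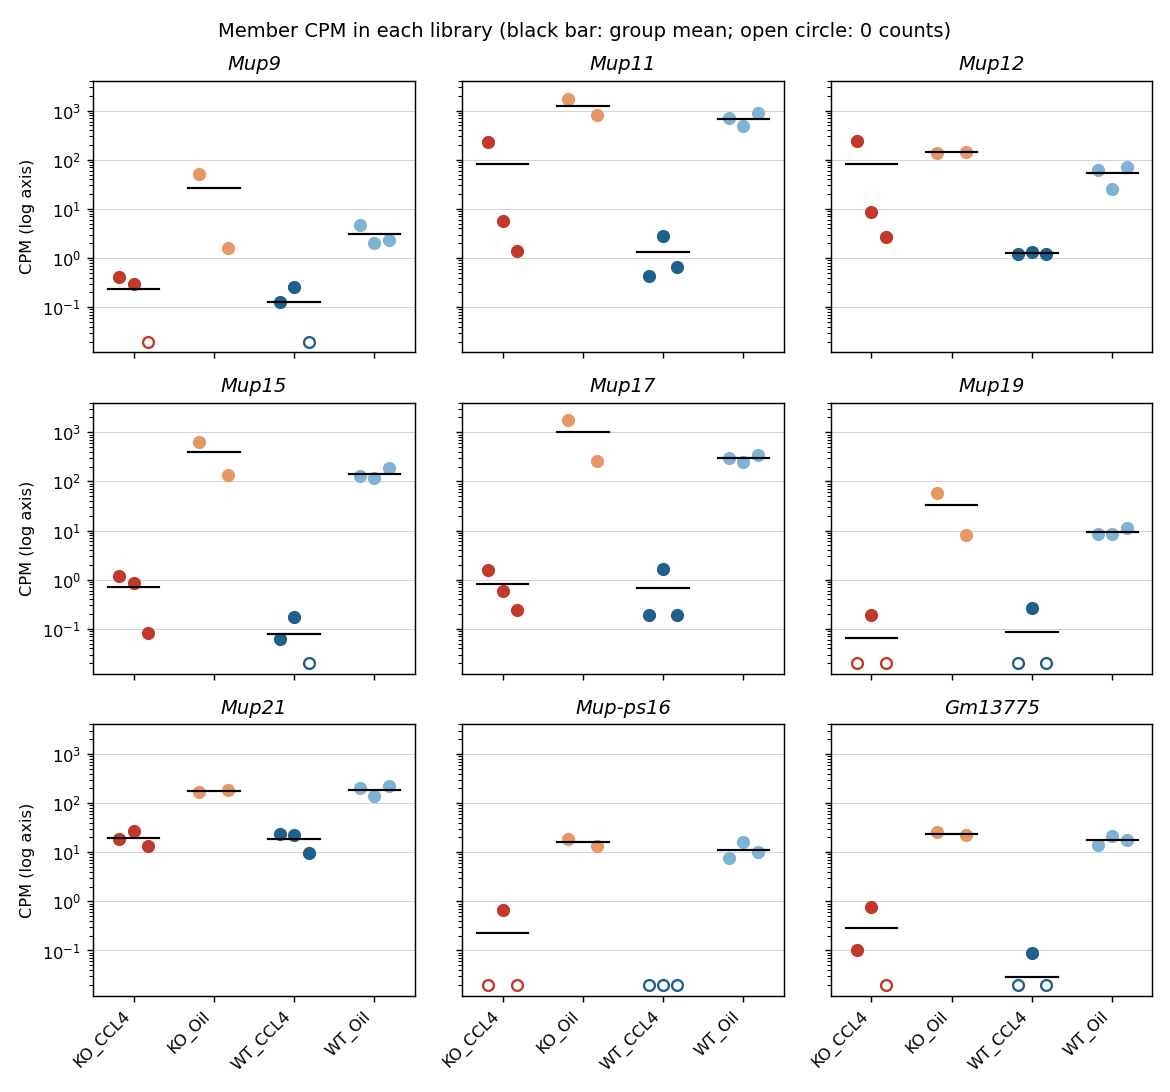
CPM (log axis) of each of the 9 members in every library, with groups in the order KO_CCL4, KO_Oil, WT_CCL4 and WT_Oil. Points are libraries, black bars are group means and open circles mark 0 counts, and the members other than Mup21 spread widest in KO_CCL4 for Mup11 and Mup12, where 1 library (15) stood at 234 and 236 CPM.

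Mup17 and Mup15, abundant central copies, were high in every oil library and near 0 in every CCl4 library. Mup17 (ENSMUSG00000096688, chr4:61591929-61595871) stood at 0.580, 0.247 and 1.61 CPM in KO_CCL4 24, 25 and 15, against 1801 and 254 CPM in KO_Oil 11 and 12. In wild types it stood at 0.189, 1.66 and 0.188 CPM in WT_CCL4, against 302, 246 and 350 CPM in WT_Oil. Every CCl4 library lay below every oil library in both genotypes, and KO_Oil 11 lay above all other oil libraries. Mup15 (ENSMUSG00000096674, chr4:61435790-61439743) stood at 0.870, 0.082 and 1.21 CPM in KO_CCL4, against 646 and 134 CPM in KO_Oil. Its values were 0.063, 0.174 and 0 CPM in WT_CCL4, against 128, 119 and 187 CPM in WT_Oil. The groups again did not overlap, and KO_Oil 11 was again the highest library. Pooled over libraries, the WT_CCL4 level of Mup15 rested on 3 counts against 4606 in WT_Oil, a ratio of 1812-fold with a 95% counting interval of 620 to 8788. For Mup17 the pooled level was 1305-fold lower in KO_CCL4 than in KO_Oil (884 to 2017) and 466-fold lower in WT_CCL4 than in WT_Oil (313 to 728). These exact intervals cover counting error only, and they do not carry the spread between libraries.

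Mup19 and Mup9 were coding copies of lower abundance with the same direction. Mup19 (ENSMUSG00000078673, chr4:61778324-61782269) stood at 0.193, 0 and 0 CPM in KO_CCL4 24, 25 and 15, against 58.3 and 8.15 CPM in KO_Oil 11 and 12. It stood at 0, 0.262 and 0 CPM in WT_CCL4, against 8.4, 8.54 and 11.4 CPM in WT_Oil. CCl4 libraries were at or under the floor of 3 counts, the oil libraries were not, and KO_Oil 11 was the only oil library above 11.4 CPM. Mup9 (ENSMUSG00000078686, chr4:60418046-60421952) stood at 0.290, 0 and 0.402 CPM in KO_CCL4, against 50.4 and 1.63 CPM in KO_Oil. It stood at 0.126, 0.262 and 0 CPM in WT_CCL4, against 4.77, 2.06 and 2.34 CPM in WT_Oil. The CCl4 and oil libraries did not overlap in either genotype, and KO_Oil 12 was the lowest oil library while KO_Oil 11 was the highest.

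Mup11 and Mup12 departed from that pattern in 1 library. Mup11 (ENSMUSG00000073834, chr4:60658466-60662411) stood at 5.71, 1.40 and 234 CPM in KO_CCL4 24, 25 and 15, against 1718 and 803 CPM in KO_Oil 11 and 12. In wild types it stood at 0.440, 2.79 and 0.659 CPM in WT_CCL4, against 697, 484 and 877 CPM in WT_Oil. The oil libraries were all above the CCl4 libraries, but KO_CCL4 15 lay far above the other 5 CCl4 libraries. Mup12 (ENSMUSG00000094793, chr4:60737383-60741326) stood at 8.51, 2.72 and 236 CPM in KO_CCL4, against 137 and 145 CPM in KO_Oil. It stood at 1.19, 1.31 and 1.22 CPM in WT_CCL4, against 63.0, 25.1 and 72.5 CPM in WT_Oil. In KO_CCL4 15 Mup12 was above every oil library, so the knockout groups overlapped, and it is the only member for which they did. Set over the mean of KO_CCL4 24 and 25, the level in KO_CCL4 15 was 65.8-fold for Mup11 and 42.0-fold for Mup12, but 3.89-fold for Mup17, 2.77-fold for Mup9, 2.53-fold for Mup15, 0.918-fold for Mup21 and 0.260-fold for Gm13775.

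Mup21, the diverged member at the distal end, kept a measurable level in every library. Mup21 (ENSMUSG00000066153, chr4:62147932-62150863) stood at 26.7, 13.2 and 18.3 CPM in KO_CCL4 24, 25 and 15, against 166 and 187 CPM in KO_Oil 11 and 12. It stood at 24, 22.6 and 9.70 CPM in WT_CCL4, against 202, 138 and 221 CPM in WT_Oil. All CCl4 libraries lay below all oil libraries, and neither KO_CCL4 15 nor KO_Oil 11 stood apart from its group. The pooled level was 9.27-fold lower in KO_CCL4 than in KO_Oil (8.49 to 10.1) and 9.28-fold lower in WT_CCL4 than in WT_Oil (8.59 to 10.03). These intervals, too, cover counting error only and not the spread between libraries. In the edgeR fit described below, the log2 fold changes of Mup21 were -3.19 (SE 0.36) in knockouts and -3.31 (SE 0.34) in wild types.

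The members without a coding gene model lay between the other copies in the array. Mup-ps16 (ENSMUSG00000090090, chr4:61797482-61800237), an unprocessed pseudogene, stood at 0.677, 0 and 0 CPM in KO_CCL4 24, 25 and 15, against 18.5 and 13.3 CPM in KO_Oil 11 and 12. It had 0 counts in all 3 WT_CCL4 libraries, against 7.49, 16.2 and 10.03 CPM in WT_Oil, and its pooled WT_CCL4 level was at least 150-fold lower, taking 3 counts for the whole group as the floor. Gm13775 (ENSMUSG00000081207, chr4:61783123-61801286) stood at 0.774, 0 and 0.101 CPM in KO_CCL4, against 25.3 and 22.0 CPM in KO_Oil, and at 0, 0.087 and 0 CPM in WT_CCL4, against 13.9, 21.4 and 17.6 CPM in WT_Oil. Both were high in the oil libraries of either genotype and near 0 after CCl4, and reads in the bases they share can have been counted for each.

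Compared per kilobase of the gene length used in the deposited table, the order of the members differed between groups. That length was 1576 bases for Mup11, 1499 for Mup9 and 927 for Mup17. The GENCODE transcripts had 930, 864 and 927 bases, so the places and ranges of Mup11 and Mup9 depend on the length used. Before division by length, Mup11 averaged 1261 CPM and Mup17 1028 CPM in KO_Oil. Counts of the single central copies are uncertain, and so is their order. In KO_CCL4, Mup12 averaged 89.0 ± 144 CPM per kb, Mup11 51.0 ± 84.4 and Mup21 28.7 ± 10.1 (SD, n = 3), and the other 6 averaged 0.0606 (Mup19) to 0.876 (Mup17) CPM per kb. The ranges of Mup12, Mup11 and Mup21 overlapped, and the break in that order lay between Mup21 and Mup17. In KO_Oil, Mup17 averaged 1109 CPM per kb, Mup11 800 and Mup15 422, with overlapping ranges in 2 libraries, followed by Mup21 at 261 ± 21.4 and Mup12 at 152 ± 6.57 (SD, n = 2), whose ranges did not overlap. In WT_CCL4, Mup21 averaged 27.7 ± 11.6 CPM per kb (SD, n = 3) and stood clear of Mup12, the next, at 1.34 ± 0.064 (SD, n = 3). In WT_Oil the order was Mup11 (435 ± 125 CPM per kb), Mup17 (323 ± 56.3), Mup21 (276 ± 64.4), Mup15 (156 ± 40.2), Mup12 (57.8 ± 27.1), Gm13775 (23.5 ± 5.04), Mup-ps16 (18.8 ± 7.47), Mup19 (8.88 ± 1.59) and Mup9 (2.04 ± 0.994), each with its SD over 3 libraries. Neighbours in the WT_Oil order had separate ranges at Mup21 and Mup15, Mup15 and Mup12, Mup-ps16 and Mup19, and Mup19 and Mup9, and overlapping ranges elsewhere. Among all Mup rows in WT_Oil, Mup11 had rank 4, after Mup3 (6859 CPM per kb), Mup20 (2955) and Mup7 (1100).

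**Figure D2:**
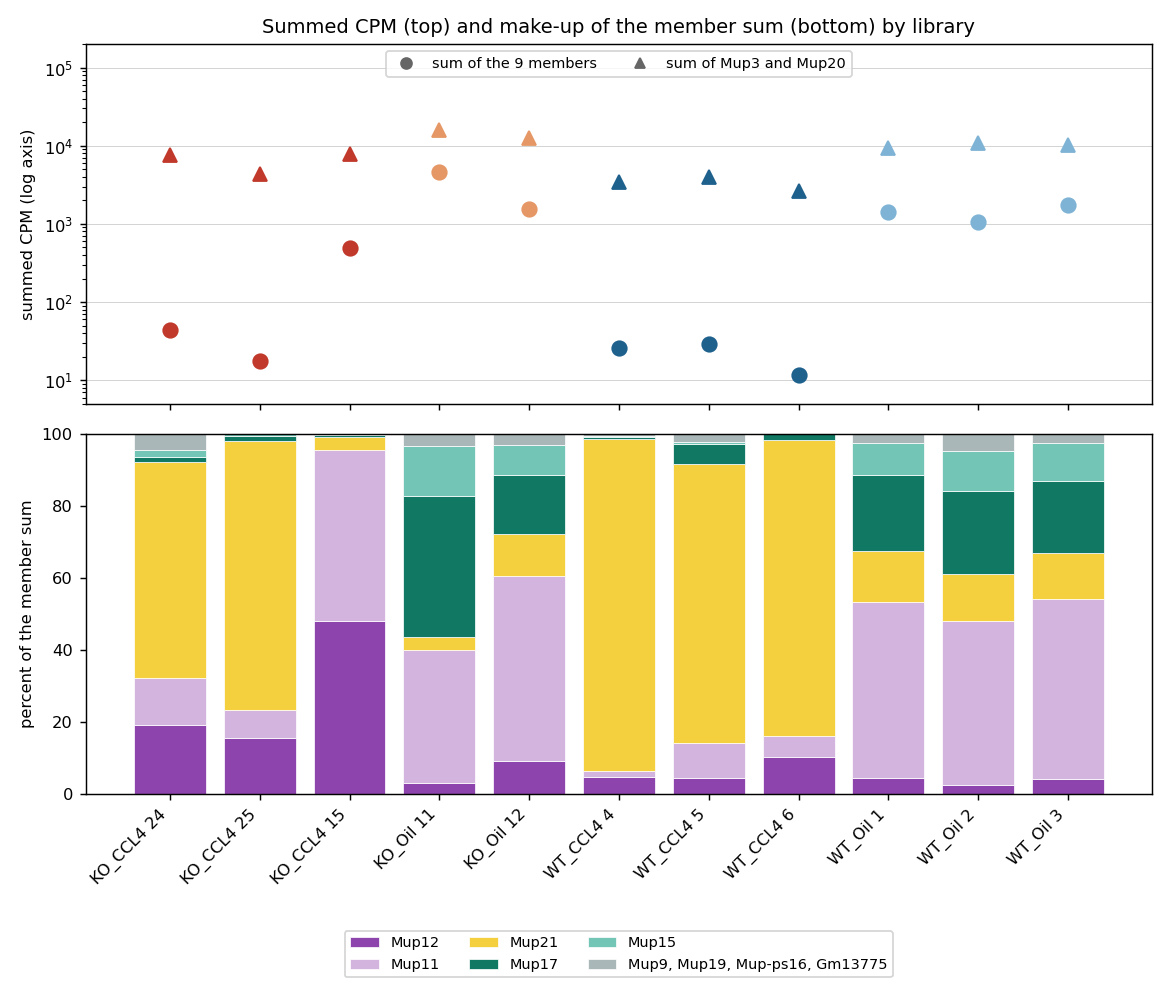
Top, summed CPM (log axis) of the 9 members (circles) and of Mup3 and Mup20 (triangles) in each library. Bottom, the percent of the member sum that each gene took; Mup21 took 60.3% to 92.3% in every CCl4 library other than KO_CCL4 15, where Mup11 and Mup12 took 47.6% and 48.0%.

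Because reads can be split among copies, the members were also summed. The sum was 44.3, 17.6 and 492 CPM in KO_CCL4 24, 25 and 15, against 4621 and 1569 CPM in KO_Oil 11 and 12. It was 26.0, 29.1 and 11.8 CPM in WT_CCL4, against 1425, 1059 and 1749 CPM in WT_Oil. The ratio of group means was 16.8-fold lower in KO_CCL4 than in KO_Oil and 63.2-fold lower in WT_CCL4 than in WT_Oil. KO_CCL4 15 carried most of the KO_CCL4 mean of 184 ± 266 CPM (SD, n = 3), and without it the log2 ratio of KO_CCL4 to KO_Oil was -6.64 in place of -4.07. The sum over all 33 Mup rows, which Mup3 and Mup20 dominate, averaged 6982 ± 2278 CPM in KO_CCL4 (SD, n = 3), 21283 ± 6417 in KO_Oil (n = 2), 3474 ± 724 in WT_CCL4 (n = 3) and 13309 ± 625 in WT_Oil (n = 3). It was 3.05-fold lower in KO_CCL4 than in KO_Oil and 3.83-fold lower in WT_CCL4 than in WT_Oil. The 9 members thus made up 0.562%, 0.402% and 5.66% of all Mup counts in KO_CCL4 24, 25 and 15, against 17.9% and 9.37% in KO_Oil 11 and 12. Their share was 0.731%, 0.702% and 0.434% in WT_CCL4, against 11.3%, 7.89% and 12.6% in WT_Oil.

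The make-up of the member sum also differed. Mup21 made up 60.3% of the member counts in KO_CCL4 24 (95% Wilson interval 55.7% to 64.6%), 74.8% in KO_CCL4 25 (68.5% to 80.1%) and 3.72% in KO_CCL4 15 (3.23% to 4.29%), against 3.60% and 11.9% in KO_Oil 11 and 12. It made up 92.3% (89.3% to 94.5%), 77.5% (72.8% to 81.7%) and 82.4% (74.8% to 88.1%) in WT_CCL4, against 12.6% to 14.1% in WT_Oil. In KO_CCL4 15, Mup11 made up 47.6% (46.2% to 49.0%) and Mup12 48.0% (46.6% to 49.4%). Mup11 took 37.2% and 51.2% in KO_Oil and 45.7% to 50.1% in WT_Oil, whereas Mup12 took 2.96% and 9.27% in KO_Oil and 2.37% to 4.42% in WT_Oil. The ratio of Mup11 to Mup12 counts was 0.670, 0.515 and 0.992 in KO_CCL4 24, 25 and 15, against 12.6 and 5.52 in KO_Oil 11 and 12, and 0.368, 2.13 and 0.538 in WT_CCL4, against 11.1, 19.3 and 12.1 in WT_Oil. Every CCl4 library therefore lay below every oil library in this ratio, KO_CCL4 15 included.

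**Figure D3:**
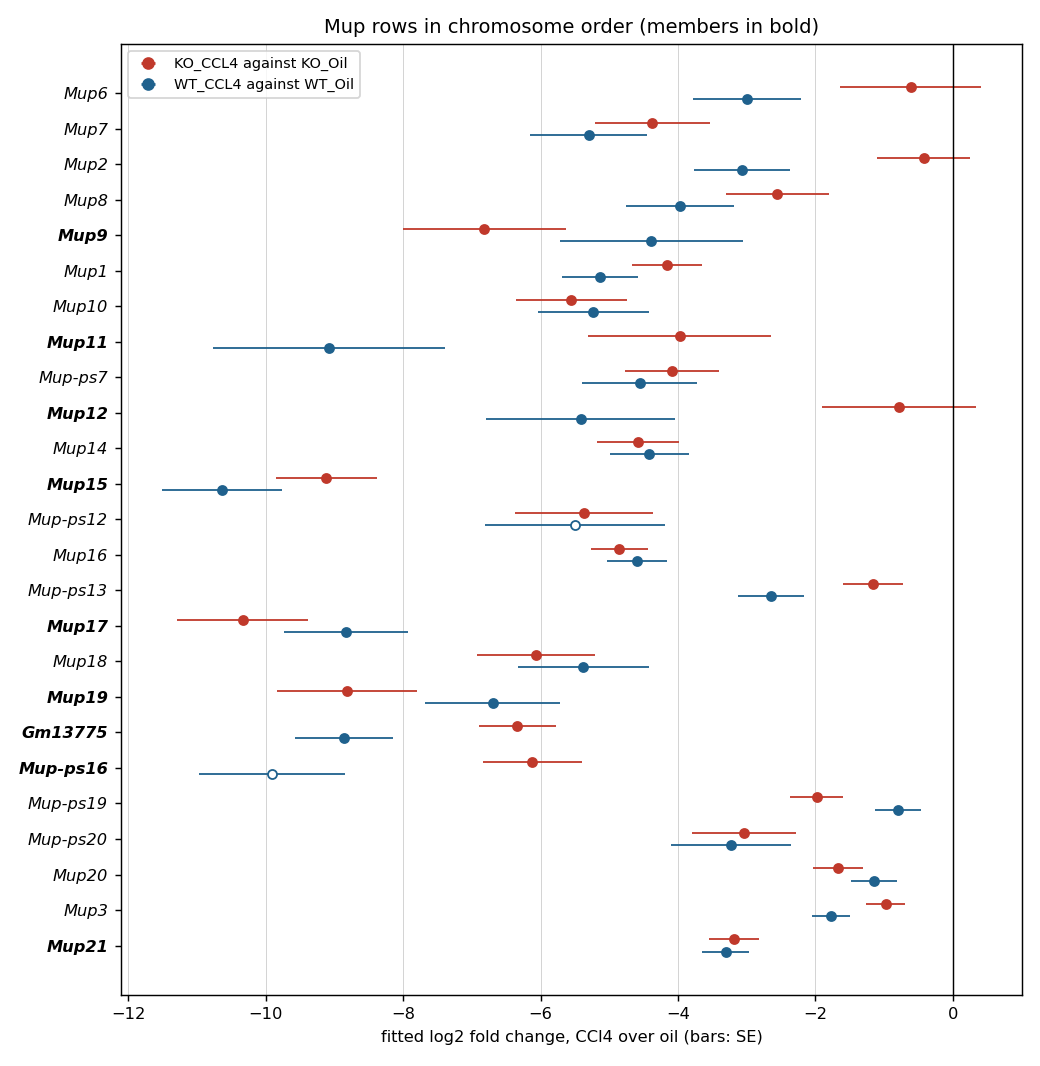
Fitted log2 fold change, CCl4 over oil, of the Mup rows that were tested, in chromosome order, in each genotype, with SE bars and members in bold. Open markers are rows with 0 counts in the CCl4 group, whose fitted value is no bound; the members other than Mup21 lay from -10.64 to -4.39 in wild types, and Mup21 lay at -3.31.

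In the edgeR quasi-likelihood fit over 16866 genes, the CCl4 contrasts gave the following description. In KO_CCL4 against KO_Oil, 7 of 9 members were called lower at a Benjamini-Hochberg adjusted p under 0.05, where 0.32% of all tested genes were called lower. The other 2 were Mup11 (log2 fold change -3.97, SE 1.33) and Mup12 (-0.78, SE 1.12). In WT_CCL4 against WT_Oil, 8 of 9 were called lower, where 1.51% of all genes were, and Mup9 (log2 fold change -4.39) was the other one. The median log2 fold change of the members was -6.34 in knockouts, where the median of all genes was 0.02, and -8.83 in wild types, where it was -0.02; with Mup-ps16 at its bound the wild-type median was -7.23. All 3 knockout CCl4 libraries lay below both oil libraries for 8 of 9 members, as they did for 14.0% of all genes, and the wild-type CCl4 libraries lay below the oil libraries for 9 of 9, as they did for 11.7% of all genes. Nothing is read from these counts, since the contrast chose the members. The other 16 tested Mup rows had 9 called lower in knockouts, with a median of -3.56, and 14 called lower in wild types, with a median of -4.19. Mup3, the most abundant row, stood at 6352, 3562 and 6549 CPM in KO_CCL4 24, 25 and 15, against 11609 and 10040 CPM in KO_Oil, and at 2496, 2182 and 1752 CPM in WT_CCL4, against 5791, 8104 and 8080 CPM in WT_Oil. Mup20 stood at 1298, 757 and 1312 CPM in KO_CCL4, against 4483 and 2678 CPM in KO_Oil, and at 950, 1853 and 909 CPM in WT_CCL4, against 3466, 2623 and 2137 CPM in WT_Oil. Mup7 stood at 84.1, 10.9 and 237 CPM in KO_CCL4, against 2926 and 1664 CPM in KO_Oil, and at 46.3, 23.5 and 16.2 CPM in WT_CCL4, against 1215, 969 and 1224 CPM in WT_Oil. The oil and CCl4 libraries did not overlap in either genotype for these 3 rows, though KO_CCL4 libraries of Mup3 reached into the range of WT_Oil.

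The authors' deposited table called 7 of 9 members in KO_CCL4 against KO_Oil, where it called 1.72% of its genes in either direction, and 7 of 9 in WT_CCL4 against WT_Oil, where it called 9.73%. The authors' deposited table called 0 of 9 in KO_CCL4 against WT_CCL4, where it called 3.11% of its genes, and 0 of 9 in KO_Oil against WT_Oil, where it called 5.46%. For Mup15 the authors' deposited table gave a log2 ratio of -6.57 in knockouts and -6.61 in wild types. Mup12 is among the 9 but may not have been testable there. Its deposited score was the same in every contrast and can stand for a missing p. Its deposited log2 ratio was 3.28 in KO_CCL4 against WT_CCL4 and -2.83 in WT_CCL4 against WT_Oil.

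**Figure D4:**
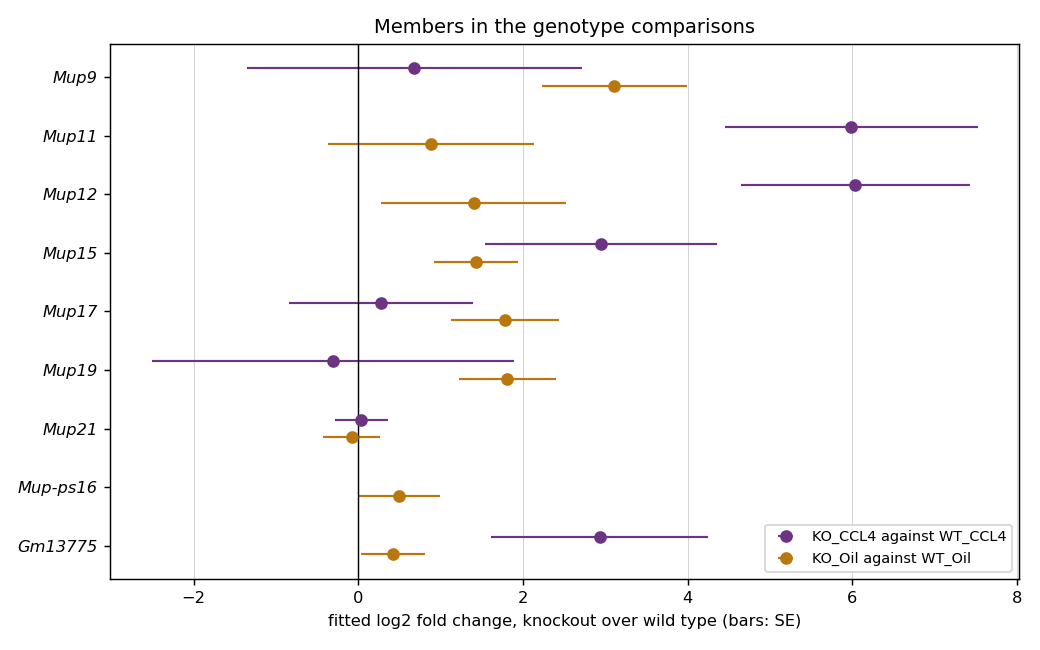
Fitted log2 fold change, knockout over wild type, of the 9 members after CCl4 and after oil, with SE bars. Points right of 0 are higher in knockouts; Mup-ps16 has no point after CCl4 because its WT_CCL4 libraries all had 0 counts, and Mup21 lay at 0.04 after CCl4 and -0.08 after oil.

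Whether loss of Hmgb2 changed the genes in undamaged liver was tested in KO_Oil against WT_Oil. No member passed: 0 of 9 were called, where 4.11% of all genes were, and 4 of 9 (Mup9, Mup15, Mup17 and Mup19) had an unadjusted p under 0.05, where 20% of all genes did. DESeq2 and limma-voom also called 0, but DESeq2 gave Mup12 no adjusted p and so could not call it. The log2 fold changes, with edgeR's adjusted p, were 3.11 for Mup9 (SE 0.88, adjusted p = 0.0674), 1.81 for Mup19 (SE 0.59, adjusted p = 0.105), 1.78 for Mup17 (SE 0.65, adjusted p = 0.146) and 1.43 for Mup15 (SE 0.51, adjusted p = 0.136). All 4 rested on KO_Oil 11: its level was 30.9-fold that of KO_Oil 12 for Mup9, 7.15-fold for Mup19, 7.08-fold for Mup17 and 4.82-fold for Mup15, but 0.941-fold for Mup12 and 0.890-fold for Mup21. Without KO_Oil 11 their fitted log2 fold changes were all below 0, at -0.87 for Mup9, -0.21 for Mup19, -0.23 for Mup17 and -0.10 for Mup15. Without KO_Oil 12, 3 members were called (Mup9, Mup19 and Mup15), where 0.861% of all genes were. In both of these fits KO_Oil is 1 library, which is assumed to vary like the other groups.

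The remaining members showed smaller differences in oil. Mup12 and Gm13775 were the 2 members whose knockout libraries all lay above the wild-type libraries, as did those of 19.7% of all genes, with log2 fold changes of 1.40 (SE 1.13) and 0.42 (SE 0.39). The edgeR adjusted p was 0.538 for Mup12 and 0.603 for Gm13775. Without KO_CCL4 24 and 25, whose spread enters the shared estimate, Mup12 passed at an adjusted p of 0.0325 from edgeR, in a fit that called 5.85% of all genes. Mup11 had a log2 fold change of 0.88 (SE 1.25), Mup-ps16 of 0.49 (SE 0.50) and Mup21 of -0.08 (SE 0.35), with edgeR adjusted p of 0.759, 0.644 and 0.933. The median over the 9 members was 1.40, beside 0.01 over all genes. The member sum was 2.19-fold higher in KO_Oil than in WT_Oil, and KO_Oil 12 at 1569 CPM lay within the WT_Oil range of 1059 to 1749 CPM. Of the 16 other tested Mup rows, 1 was called, higher: Mup16 averaged 136 CPM in KO_Oil (202 and 70.1) against 32.01 CPM in WT_Oil (log2 fold change 2.09, SE 0.37, edgeR adjusted p = 0.0118).

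After CCl4, KO_CCL4 against WT_CCL4 again gave 0 of 9 members called, where 1.2% of all genes were, and 3 of 9 (Mup11, Mup12 and Gm13775) at an unadjusted p under 0.05, where 16.7% of all genes were. Mup12 was the 1 member whose knockout libraries all lay above the wild-type libraries, as did those of 9.25% of all genes, with a log2 fold change of 6.04 (SE 1.39, edgeR adjusted p = 0.0575). Mup11 had a log2 fold change of 5.99 (SE 1.54, edgeR adjusted p = 0.0782), and KO_CCL4 25 lay inside the WT_CCL4 range. Gm13775 had 2.93 (SE 1.32), Mup15 2.95 (SE 1.41), Mup9 0.68 (SE 2.03), Mup17 0.27 (SE 1.12) and Mup19 -0.31 (SE 2.20), from levels at or near the floor, and no fold is given for Mup-ps16, which had 0 counts in WT_CCL4. Mup21 had a log2 fold change of 0.04 (SE 0.33, edgeR adjusted p = 0.968), from levels well above it. The member sum was 8.27-fold higher in KO_CCL4 than in WT_CCL4, a log2 ratio of 3.05, which was 0.47 without KO_CCL4 15.

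The calls for Mup11 and Mup12 after CCl4 depended on the libraries and the tool. DESeq2, which called 4.29% of all genes, called Mup11 (log2 fold change 5.97, adjusted p = 0.00318) and gave Mup12 no adjusted p. limma-voom called 0 members and 0.617% of all genes. With upper quartile scaling, which called 1.78% of all genes, Mup12 passed at an edgeR adjusted p of 0.0483. Both were called without KO_CCL4 25, where 1.02% of all genes were, and without KO_CCL4 24 and 25 together, where 0.24% of all genes were and where the lone KO_CCL4 library is assumed to vary like the other groups. Of the 16 other tested Mup rows 2 rose: Mup3 by a log2 fold change of 1.36 (SE 0.27, edgeR adjusted p = 0.0358) and the pseudogene Mup-ps13 by 2.78 (SE 0.48, edgeR adjusted p = 0.0222). Mup-ps13 stood at 7.54, 4.45 and 3.22 CPM in KO_CCL4 24, 25 and 15, against 0.817, 0.960 and 0.377 CPM in WT_CCL4, without overlap. The 3 knockout libraries lay above all 3 wild-type libraries for Mup3 as well.

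The test of whether the CCl4 difference depended on genotype called 0 of 9 members, where 0.101% of all genes were called. It also called 0 of the 16 other Mup rows. DESeq2 and limma-voom called 0 members as well, but DESeq2 gave Mup12 no adjusted p and so could not call it. At an unadjusted p under 0.05 there were 2 members, Mup11 (interaction log2 5.11, SE 2.01, edgeR adjusted p = 0.288) and Mup12 (4.64, SE 1.82, edgeR adjusted p = 0.286), where 13.7% of all genes were under it. Without KO_CCL4 24 and 25, with KO_CCL4 15 as the lone library of its group, both were called, where 1.47% of all genes were. For Mup21 the interaction was 0.12 on the log2 scale (SE 0.48, edgeR adjusted p = 0.942).

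The factors that act on Mup genes were examined through lists of known genes. Among all tested genes, 4.11% were called in either direction in KO_Oil against WT_Oil and 1.2% in KO_CCL4 against WT_CCL4. The shares were 8.48% in WT_CCL4 against WT_Oil and 0.652% in KO_CCL4 against KO_Oil, and they stand beside all list counts below. Of 19 tested genes of growth hormone and STAT5 signalling, 0 passed in KO_CCL4 against WT_CCL4. In KO_Oil against WT_Oil 1 passed, Lepr, the leptin receptor, with a log2 fold change of -2.92 (edgeR adjusted p = 0.0075). In KO_CCL4 against KO_Oil 1 passed, Socs2, the STAT5 target that dampens growth hormone signalling, at -2.05 (edgeR adjusted p = 0.0475), and in WT_CCL4 against WT_Oil 1 passed, Igfbp3, a carrier of insulin-like growth factors, at 1.44 (edgeR adjusted p = 0.0246). Ghr, the growth hormone receptor, was at 478 to 682 CPM in KO_CCL4, 724 to 733 CPM in KO_Oil, 328 to 336 CPM in WT_CCL4 and 340 to 519 CPM in WT_Oil. Its knockout libraries lay above the wild-type libraries in both treatments, at an edgeR adjusted p of 0.0567 after CCl4 and 0.0525 in oil. Igf1, the circulating product of growth hormone action, was at 523 to 682 CPM in KO_CCL4, 661 to 732 CPM in KO_Oil, 363 to 503 CPM in WT_CCL4 and 447 to 589 CPM in WT_Oil, with log2 fold changes between genotypes of 0.49 after CCl4 and 0.37 in oil (edgeR adjusted p = 0.213 and 0.351). Stat5b and Bcl6, a STAT5-opposing repressor, had adjusted p of 0.246 or more in all 4 contrasts.

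Of 30 tested transcription factors that act on Mup promoters or on sex-biased liver genes, 0 passed in either CCl4 contrast. Dbp, a clock-controlled activator, was higher in KO_Oil than in WT_Oil (log2 fold change 2.91, edgeR adjusted p = 0.00622). Foxa3, a liver pioneer factor, was lower in KO_CCL4 than in WT_CCL4 (-1.11, edgeR adjusted p = 0.0172). Hnf4a, the hepatocyte nuclear receptor, was at 569 to 612 CPM in KO_Oil against 864 to 1101 CPM in WT_Oil (log2 fold change -0.78, edgeR adjusted p = 0.0571). Zhx2, a regulator of Mup and other liver genes, was at 17.7 to 23.3 CPM in all 11 libraries. Cux2, a female-biased repressor of male genes, ran at low level, 0.402 to 11.96 CPM, with no call in any of the contrasts. Beside the oil comparison, 12 of 19 clock genes were higher and 2 lower in KO_Oil than in WT_Oil, led by Per3 (log2 fold change 3.69, edgeR adjusted p = 0.00253) and Usp2 (2.51, edgeR adjusted p = 0.00264). Their part in the Mup values was not tested.

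Mup genes are among the genes that run higher in male than in female mouse liver, and the other genes of that kind were followed in 2 lists. Of 30 tested male-biased genes, 0 were higher and 4 lower in KO_CCL4 than in KO_Oil, and 1 was higher and 8 lower in WT_CCL4 than in WT_Oil, with list medians of -0.94 and -0.78 on the log2 scale. Susd4 was lower after CCl4 by -4.16 (adjusted p = 0.00219) in knockouts and -3.85 (adjusted p = 0.000577) in wild types, and Fitm1, which acts in lipid droplet formation, by -2.52 and -4.02 (adjusted p = 0.0338 and 0.000628), all log2 fold changes tested with edgeR. Elovl3, a fatty acid elongase, was at 14.1 to 35.3 CPM in KO_CCL4, 66.0 to 71.3 CPM in KO_Oil, 22.4 to 67.9 CPM in WT_CCL4 and 218 to 367 CPM in WT_Oil, and was called lower in WT_CCL4 than in WT_Oil (-2.71, edgeR adjusted p = 0.00222) and in KO_Oil than in WT_Oil (-2.08, edgeR adjusted p = 0.0292). Cyp4a12a, a male-specific fatty acid hydroxylase, was at 77.7 to 106 CPM in KO_CCL4, 176 to 270 CPM in KO_Oil, 11.2 to 91.4 CPM in WT_CCL4 and 159 to 229 CPM in WT_Oil. Between genotypes, 3 male-biased genes were higher and 1 lower in KO_Oil than in WT_Oil, led by the steroid dehydrogenase Hsd3b2 (2.45, edgeR adjusted p = 0.0123), and 2 were higher and 1 lower in KO_CCL4 than in WT_CCL4, led by Nat8f5 (2.12, edgeR adjusted p = 0.00419). Of 31 tested female-biased genes, 2 were higher and 0 lower in KO_CCL4 than in KO_Oil, the cytochromes P450 Cyp2b9 (7.11, edgeR adjusted p = 0.00853) and Cyp2a22 (3.76, edgeR adjusted p = 0.0157). In WT_CCL4 against WT_Oil 8 were higher and 3 lower, led by Atp6v0d2 (2.33, edgeR adjusted p = 0.000987). Between genotypes, 2 female-biased genes were higher and 0 lower in KO_Oil than in WT_Oil. After CCl4, 1 was higher and 0 lower in KO_CCL4 than in WT_CCL4, and the list median was -0.14 in both comparisons. The summed level of the list was 684 to 1525 CPM in KO_Oil against 8895 to 12416 CPM in WT_Oil, without overlap. It was 1067 to 11852 CPM in KO_CCL4 and 4443 to 8970 CPM in WT_CCL4. A sum follows the most abundant genes of a list, and 0 of the 31 were called lower in KO_Oil than in WT_Oil. The gap in oil is therefore not a fall of the list as a whole, whose median was -0.14.

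Marker transcripts of cell types and of mitosis were followed in the same contrasts, and their part in the Mup values was not tested. Calls were rarer in knockouts among all tested genes, at 0.652% in KO_CCL4 against KO_Oil and 8.48% in WT_CCL4 against WT_Oil. Of 15 infiltrating macrophage markers, 13 were higher in WT_CCL4 than in WT_Oil and 0 passed in KO_CCL4 against KO_Oil. Their summed level was 263 to 409 CPM in KO_CCL4, 218 to 303 CPM in KO_Oil, 414 to 1047 CPM in WT_CCL4 and 121 to 230 CPM in WT_Oil. Of 15 stellate cell and myofibroblast markers 11 were higher in WT_CCL4 than in WT_Oil and 1 in KO_CCL4 than in KO_Oil. Of 20 mitosis genes 18 were higher in WT_CCL4 than in WT_Oil, 0 in KO_CCL4 than in KO_Oil, and 10 were lower in KO_CCL4 than in WT_CCL4. Of 20 markers of pericentral hepatocytes, the cells around the central vein, 0 passed in KO_CCL4 against KO_Oil, while in WT_CCL4 against WT_Oil 7 were lower and 1 higher. Their summed level was 13657 to 15241 CPM in KO_CCL4, 19470 to 21413 CPM in KO_Oil, 7286 to 10087 CPM in WT_CCL4 and 16424 to 21311 CPM in WT_Oil, so both CCl4 groups lay below both oil groups. Of 15 markers of periportal hepatocytes, the cells around the portal vein, 0 passed in either contrast. List medians in WT_CCL4 against WT_Oil were -0.55 for pericentral, -0.45 for periportal and -0.32 for the 20 hepatocyte markers. In KO_CCL4 against KO_Oil they were -0.43, -0.03 and -0.06. Cyp2e1, the enzyme that activates CCl4, was lower in WT_CCL4 than in WT_Oil (-1.41, edgeR adjusted p = 0.0135), with -0.43 in KO_CCL4 against KO_Oil (edgeR adjusted p = 0.638). Of 23 tested genes that neighbour the Mup array on chromosome 4, 0 passed in KO_CCL4 against KO_Oil or in KO_CCL4 against WT_CCL4. In WT_CCL4 against WT_Oil 1 was higher, Ptgr1, a prostaglandin reductase (2.59, edgeR adjusted p = 0.0396), and in KO_Oil against WT_Oil 1 was lower, Hsdl2 (-1.51, edgeR adjusted p = 0.0466).

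How alike the members were over the libraries was described by the Pearson correlation of log2 (CPM + 0.5) across the 11 libraries, which fall into 4 groups and share the CCl4 and oil split. Over 36 member pairs it ran from 0.656 (Mup9 and Mup12) to 0.998 (Mup-ps16 and Gm13775), with a median of 0.921. The lowest 4 pairs all held Mup12, with Mup9, Mup19, Mup-ps16 and Mup21. Among 11035 genes with a mean of at least 5 CPM, the 5 outside the Mup rows whose pattern was most like the member sum were Phospho2 (r = 0.965), Ypel3 (0.944), Clcc1 (0.935), Blvrb (0.927) and C1galt1c1 (0.922). Their range was far narrower than that of the members. Phospho2 was at 19.1 to 27.3 CPM in KO_CCL4, 26.4 to 31.3 CPM in KO_Oil, 19.7 to 21.1 CPM in WT_CCL4 and 26.9 to 30.0 CPM in WT_Oil. Blvrb, a biliverdin reductase, was at 68.3 to 80.2 CPM in KO_CCL4, 113 to 149 CPM in KO_Oil, 55.8 to 73.6 CPM in WT_CCL4 and 103 to 118 CPM in WT_Oil.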

How the data were processed

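RNA of frozen mouse liver was sequenced as 11 libraries after library preparation with a stranded total RNA kit, per the labels' protocols, although the series text names capped RNA; this was not resolved. The tools Bowtie and DESeq2 and the builds mm10 and GRCm38 come from the submitters' processing notes, without versions. Per the file headers, the authors deposited raw counts per gene, in which 1 overlapping base is enough for an alignment to count for a gene and both mates of a pair count together. The sources used here do not say whether strand was used, so antisense and overlapping genes can share reads. The authors deposited FPKM values in the same table, not used for tests. Log2 ratios and scores deposited by the authors, each score being -10 times log10 of an adjusted p from DESeq2, are quoted where named, with the sign set to match. Other deposited columns, such as identifiers, gene lengths and coordinates, served as annotation. Another 2 lists by the authors, of 30438 identifiers with low counts and 26 with very high counts, held 16 and 0 Mup identifiers, which were not analysed here. Of 2096 blank symbols 2069 were named from a RefSeq table.

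The test was edgeR 4.0.16 in R 4.3.3: filterByExpr by group (minimum count 10, minimum total 15; 16866 genes), TMM, 1 quasi-likelihood fit of 4 group means over 11 libraries, 5 contrasts, Benjamini-Hochberg over all genes, called at an adjusted p under 0.05. The SE is the log2 fold change over the square root of F. CPM intervals are exact conditional Poisson and Wilson 95% intervals, and the floor is 3 counts. The fit was tested on simulated data. No p was computed for a sum or list. Sequence work used Biopython 1.88 and Python 3.11.15; alternatives used DESeq2 1.42.0 and limma 3.58.1. Members and lists were chosen with earlier results of these data known. Genes named are the 9 members, other Mup rows, up to 4 called genes of each list with the smallest p, preset regulators and the 5 genes most like the member sum. No replicate number or batch pairs libraries across groups.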

Additional observations from a re-analysis of the deposited data

How the results depend on the processing

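No paired analysis was possible because no replicate number is shared between groups. The alternatives were other scalings (RLE, upper quartile, TMM without Mup rows), no filter and a filter at a mean of 5 CPM, DESeq2, limma-voom, fits of only the groups compared, and leaving out libraries; sums over other sets of rows were partly added after seeing the data. Without both E-numbered KO_CCL4 libraries, 1 member was called in KO_Oil against WT_Oil, 2 in KO_CCL4 against WT_CCL4 and 2 for the interaction, where the fit of all 11 libraries called 0, and the log2 fold change of Mup12 in KO_CCL4 against KO_Oil was 0.75 and that of Mup21 in KO_CCL4 against WT_CCL4 was -0.0207. DESeq2 and upper quartile scaling each called 1 member in KO_CCL4 against WT_CCL4, and upper quartile scaling gave Mup21 -0.0149 there; limma-voom gave Mup19 0.12. Summed over all Mup rows, the log2 ratios were 1.01 in KO_CCL4 against WT_CCL4, -1.61 in KO_CCL4 against KO_Oil and -1.94 in WT_CCL4 against WT_Oil, beside 3.05, -4.07 and -5.98 for the members.

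Leaving out 1 library at a time, the members called ranged from 0 to 3 in KO_Oil against WT_Oil, 0 to 2 in KO_CCL4 against WT_CCL4, 5 to 9 in KO_CCL4 against KO_Oil and 7 to 9 in WT_CCL4 against WT_Oil, and stayed at 0 for the interaction. The share of all genes called in those fits ranged from 0.102% to 6.84% in KO_Oil against WT_Oil, 0.0832% to 3.73% in KO_CCL4 against WT_CCL4, 0.0624% to 2.22% in KO_CCL4 against KO_Oil, 2.81% to 13.4% in WT_CCL4 against WT_Oil and 0% to 1.7% for the interaction. The log2 ratio of the sum ranged from 0.16 to 1.72 in KO_Oil against WT_Oil, 0.47 to 3.59 in KO_CCL4 against WT_CCL4, -6.64 to -3.08 in KO_CCL4 against KO_Oil and -6.22 to -5.67 in WT_CCL4 against WT_Oil. Some members crossed 0. In KO_Oil against WT_Oil the log2 fold change ranged from -0.87 to 4.08 for Mup9, -0.10 to 2.17 for Mup15, -0.23 to 2.60 for Mup17, -0.21 to 2.63 for Mup19 and -0.26 to 0.0768 for Mup21. In KO_CCL4 against WT_CCL4 it ranged from -0.67 to 1.99 for Mup17, -0.998 to 0.272 for Mup19 and -0.27 to 0.26 for Mup21. The interaction ranged from -3.39 to 1.56 for Mup9, -2.46 to 0.50 for Mup17 and -0.19 to 0.34 for Mup21. Fold changes over a group left with 0 counts in all its libraries were not used, which removes Mup-ps16 from every contrast with WT_CCL4. Of the other values, none under these alternatives changed direction. For most values the cause was not tested; a left-out library changes its own group mean by construction. Depth limits the members with 0 to 3 pooled counts after CCl4: counting intervals are wide at 1 to 3, and only the bound of Mup-ps16 in wild types rests on the floor.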

Other observations

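Other carrier proteins of the liver were described as a group of 19 tested lipocalins and carriers outside the Mup rows. In KO_Oil against WT_Oil 3 were higher and 0 lower: Orm3, an acid glycoprotein (log2 fold change 3.24, SE 0.67, edgeR adjusted p = 0.0217), Serpina6, which carries corticosteroids in blood (2.02, SE 0.42, edgeR adjusted p = 0.0232), and Ptgds, a lipocalin-type prostaglandin synthase (3.81, SE 0.89, edgeR adjusted p = 0.0358). In KO_CCL4 against WT_CCL4 Orm3 alone passed (3.07, SE 0.67, edgeR adjusted p = 0.0492). In WT_CCL4 against WT_Oil 1 was higher, Afp, the fetal albumin relative (3.32, edgeR adjusted p = 0.0086), and 2 were lower, Obp2a, an odorant-binding lipocalin (-2.82, edgeR adjusted p = 0.0336), and Scp2 (-0.67, edgeR adjusted p = 0.0416), whereas 0 of 19 passed in KO_CCL4 against KO_Oil. The list medians were 0.50 in KO_Oil against WT_Oil and 0.04 in KO_CCL4 against WT_CCL4, beside 0.01 and 0.00 over all genes.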
